A study of Homo sapiens with 15 samples.

Results

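The mitochondrial ribosomal protein genes were taken as the genes of the expression table whose symbol is MRPL or MRPS followed by a number and at most 1 letter A, B or C, and 75 of the 18322 genes matched. Of these, 46 carry an MRPL symbol (large subunit) and 29 an MRPS symbol (small subunit). All 75 passed the filter on low values, and each had at least 10 reads in every library. The RNA came from A375 cells, a line from a human melanoma, and was sequenced in 5 groups of 3 libraries, given in the series as biological triplicates. These were parental cells with MYC T58A (Parental-MYC T58A), resistant cells labelled shMYC1 (Resistant-shMYC1), resistant cells labelled shMYC2 (Resistant-shMYC2), resistant cells (Resistant) and parental cells (Parental). Resistant cells are a clonal population that resists PLX4720, an inhibitor of mutant BRAF, so that no spread between independent resistant populations was measured. MYC T58A is a form of the transcription factor MYC in which a threonine that marks the protein for degradation is replaced, and shMYC stands for a short hairpin RNA against MYC. The promoters that drive MYC T58A and the hairpins, and whether PLX4720 was present at harvest, are stated nowhere in the sources used here.

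Mitochondria carry their own ribosomes, which translate the few mRNAs of the mitochondrial genome into subunits of the respiratory chain. The rRNAs of these ribosomes (MT-RNR1 in the small subunit, MT-RNR2 in the large) are transcribed from mitochondrial DNA, whereas every ribosomal protein is encoded in the nucleus, made in the cytosol and imported. Some of the proteins have relatives in bacterial ribosomes and others are particular to mitochondria. The symbols do not always give the place of a protein: MRPS30 and MRPS18A sit in the large subunit, and MRPS36 is now known as a part of the 2-oxoglutarate dehydrogenase complex.

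The libraries held 24222192 to 30399644 reads in genes. The targeted gene went against the hairpin labels. MYC averaged 3511 ± 94.4 in Parental-MYC T58A, 486 ± 29.5 in libraries labelled shMYC1, 7817 ± 259.8 in those labelled shMYC2, 302.5 ± 28.1 in Resistant and 422.7 ± 11.9 in Parental libraries (normalised reads, which are reads over the size factor of the library, SD, n = 3 each). MYC was thus higher, not lower, in both hairpin-labelled groups than in Resistant libraries. Over the tested genes, the libraries labelled shMYC1 correlated with Parental at r = 0.972 to 0.974 and with Resistant, the cells they are labelled as derived from, at 0.937 to 0.942. The libraries labelled shMYC2 correlated with the other 12 at r = 0.807 to 0.829, and 1636 to 1694 genes had no read in them, against 296 to 665 in the other libraries. The label melanocyte was met only in part: SOX10, a transcription factor of the melanocyte lineage, averaged 9.14 ± 1.99 in Parental-MYC T58A, 11890 ± 1138 in libraries labelled shMYC1, 19.5 ± 3.74 in those labelled shMYC2, 7.5 ± 2.52 in Resistant and 5282 ± 149.2 in Parental. The pigment cell genes PMEL, TYRP1 and DCT had means of at most 78.6 in every group. Of the markers of other cell types, 3 keratinocyte genes summed to 1638 to 2116 normalised reads in the libraries labelled shMYC1 and 775.9 to 1177 elsewhere, 3 endothelial genes to 106.7 to 140.5 in those labelled shMYC1 and 7.05 to 42.8 elsewhere, and the immune gene CD68 to at most 61.1 in any library.

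The members spanned a wide range of levels. Per kilobase of exon, MRPL51, MRPL3, MRPL15, MRPS34 and MRPS35 had the highest mean values over all libraries, at 3581, 2914, 2535, 2467 and 2069 normalised reads per kilobase. MRPS17, MRPL53, MRPL46, MRPL38 and MRPS24 had the lowest, at 85.7, 43.5, 41.5, 15.5 and 14.8 normalised reads per kilobase. In GENCODE v29, 37.5% of the exon sequence of MRPL38, 27% of that of MRPS17 and 68.2% of that of MRPL12 is shared with another gene on the same strand, so that the reads of these genes are uncertain. Differences between groups were small beside that range. The highest group mean exceeded the lowest by a median of 1.67-fold over the 75 members, and by 2-fold or more in 20 of them. MRPS24, the relative of the bacterial protein that lines the mRNA entry of the small subunit, had the widest spread of group means at 5.36-fold, followed by MRPL36 at 4.4-fold and MRPS30 at 4.11-fold.

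The 5 groups ranked differently over the members than over all tested genes. The highest of the 5 group means lay in Parental-MYC T58A for 39 members (52%), against 22.7% of all tested genes. The lowest lay in Resistant for 40 members (53.3%), against 16.4% of all tested genes. In 28 members (37.3%) all 3 Parental-MYC T58A libraries were above the other 12, which 13.7% of all tested genes showed. In 17 members (22.7%) all 3 Resistant libraries were below the other 12, which 7.21% of all tested genes showed. The libraries labelled shMYC2, which stood apart over the whole table, lay above all others in 13 members (17.3%, against 24.2% of all genes) and below all others in 17 (22.7%, against 27.7%). All 3 libraries labelled shMYC1 were above the other 12 in 5 members (6.67%, against 5.97%) and below them in none (4.51% of all genes). Resistant was above in 2 members (2.67%, against 12.3%) and Parental-MYC T58A below in 3 (4%, against 12.4%). Parental was above in none (3.96% of all genes) and below in 1 (1.33%, against 2.68%). These shares are descriptions and were not tested.

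**Figure D1:**
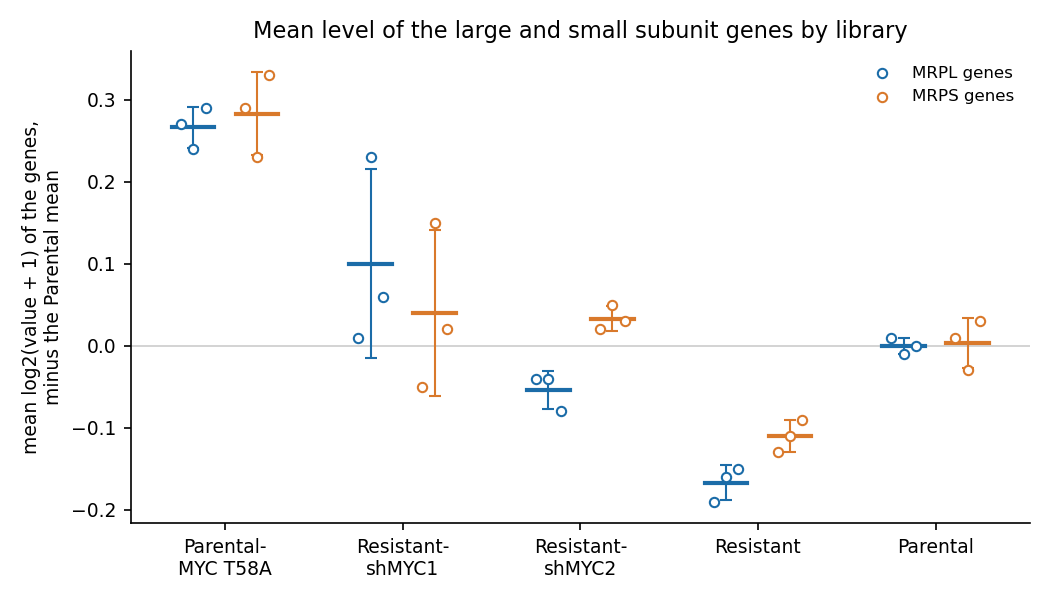
Mean log2(value + 1) of the 46 MRPL genes and of the 29 MRPS genes in each library (points), minus the mean of the 3 Parental libraries. Horizontal bars are group means and error bars the SD over 3 libraries. Both subunits are highest in Parental-MYC T58A and lowest in Resistant, and library 2 labelled shMYC1 lies above the other 2 of its group.

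Both subunits shared this order. Relative to the Parental mean, the mean log2 level of the MRPL genes was 0.27, 0.24 and 0.29 in the Parental-MYC T58A libraries, 0.01, 0.23 and 0.06 in those labelled shMYC1, -0.04, -0.04 and -0.08 in those labelled shMYC2 and -0.19, -0.16 and -0.15 in Resistant. For the MRPS genes the same quantity was 0.29, 0.23 and 0.33 in Parental-MYC T58A, -0.05, 0.15 and 0.02 in libraries labelled shMYC1, 0.02, 0.05 and 0.03 in those labelled shMYC2 and -0.13, -0.11 and -0.09 in Resistant. In the libraries labelled shMYC2, the MRPL mean was slightly below and the MRPS mean slightly above the Parental level. The MRPL mean minus the MRPS mean was -0.06, -0.09 and -0.11 there, and -0.06, -0.05 and -0.06 in Resistant. By medians the subunits did not part: the log2 differences of the libraries labelled shMYC2 from Parental had medians of -0.01 for MRPL and -0.02 for MRPS genes. MRPL reads outnumbered MRPS reads by 1.6 to 1.61 times in Parental-MYC T58A, 1.77 to 1.82 times in libraries labelled shMYC1, 1.59 times in those labelled shMYC2, 1.74 to 1.75 times in Resistant and 1.68 to 1.7 times in Parental. The ranges of this ratio did not overlap between groups, though those of Parental-MYC T58A and the libraries labelled shMYC2 nearly touched. The ratio follows the symbols, so that MRPS reads include those of MRPS30 and MRPS18A, which sit in the large subunit, and of MRPS36. MRPS30 alone averaged 5168 in Parental-MYC T58A and 2493 in Parental. The ratio was lower in Parental-MYC T58A than in Parental, but the median log2 differences were 0.29 for MRPL and 0.24 for MRPS genes. No ratio with subunits by structure is given here.

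Promoter sequences of 70 members were available from RefSeq (GRCh38.p14, 250 bases before to 50 after the start of the gene) and were searched for 5 motifs on both strands. The E-box CACGTG, which MYC binds with MAX, was present in 8 of 70 members (11.4%), against 9.96% of the 10641 tested genes with a promoter in the table. The motif AAGATGGCG of YY1 was present in 13 members (18.6%), against 3.76% of tested genes, and the ETS family motif CCGGAAG in 27 (38.6%), against 18%. The motif of NRF1 was present in 6 members (8.57%), against 11.1%, and CCAAT, the motif of NFY, in 21 (30%), against 36.8%. Among MRPL promoters 14.6% held the E-box, 19.5% the YY1 motif and 36.6% the ETS motif. Among MRPS promoters the shares were 6.9%, 17.2% and 41.4%. The 8 members with CACGTG had a median log2 difference of 0.14 in Parental-MYC T58A against Parental, and the 62 without it had 0.28. In Resistant against Parental these medians were -0.13 with and -0.15 without it. In the libraries labelled shMYC1 against Resistant they were 0.31 with and 0.20 without it, and in those labelled shMYC2 against Resistant 0.47 with and 0.08 without it, so that the order of the 2 medians differed between comparisons. Differences of neighbouring genes were not taken off here. The E-box members MRPL36, MRPL22 and MRPS36 lie on chromosome 5. Tested genes of that chromosome had a median of 0.446 in the libraries labelled shMYC1 and 0.291 in those labelled shMYC2, both against Resistant. A match is only a run of letters in this window.

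Of the 8 members with CACGTG, 3 lie on chromosome 5 and had some of the largest differences of all members, and their promoters are shown for that reason. Capitals mark CACGTG, which begins 56, 176 and 126 bases before the start of MRPL36, MRPL22 and MRPS36. The regions are chr5:1799808-1800087 (minus strand), chr5:154940823-154941102 (plus strand) and chr5:69217510-69217789 (plus strand), each printed 5′ to 3′ on the strand of the gene.
MRPL36: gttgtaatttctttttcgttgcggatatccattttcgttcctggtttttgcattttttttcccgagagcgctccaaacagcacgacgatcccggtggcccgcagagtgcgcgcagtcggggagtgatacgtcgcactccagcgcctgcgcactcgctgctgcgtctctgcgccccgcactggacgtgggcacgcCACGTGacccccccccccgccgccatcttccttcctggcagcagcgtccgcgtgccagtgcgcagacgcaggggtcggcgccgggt
MRPL22: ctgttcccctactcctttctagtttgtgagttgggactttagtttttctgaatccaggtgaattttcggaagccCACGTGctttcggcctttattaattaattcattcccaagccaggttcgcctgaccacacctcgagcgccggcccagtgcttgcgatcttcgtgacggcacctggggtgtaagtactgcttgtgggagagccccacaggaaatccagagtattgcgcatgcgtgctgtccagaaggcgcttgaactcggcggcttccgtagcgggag
MRPS36: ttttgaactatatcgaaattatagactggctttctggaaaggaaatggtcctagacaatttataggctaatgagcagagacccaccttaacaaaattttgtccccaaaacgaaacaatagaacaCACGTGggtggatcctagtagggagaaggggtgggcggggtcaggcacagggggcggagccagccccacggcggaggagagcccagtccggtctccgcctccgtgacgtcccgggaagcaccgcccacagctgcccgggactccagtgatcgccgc

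The promoters of MRPS18A and MRPS10 are shown because they hold both the ETS and the YY1 motif. They were chosen after their values were seen. The promoter windows of MRPL38 and MRPL52 also held both motifs and are not shown. Capitals mark CCGGAAG, which begins 31 and 22 bases before the start of MRPS18A and MRPS10, and AAGATGGCG, which begins 10 bases after the start in both. The regions are chr6:43687762-43688041 and chr6:42217832-42218111, both on the minus strand.
MRPS18A: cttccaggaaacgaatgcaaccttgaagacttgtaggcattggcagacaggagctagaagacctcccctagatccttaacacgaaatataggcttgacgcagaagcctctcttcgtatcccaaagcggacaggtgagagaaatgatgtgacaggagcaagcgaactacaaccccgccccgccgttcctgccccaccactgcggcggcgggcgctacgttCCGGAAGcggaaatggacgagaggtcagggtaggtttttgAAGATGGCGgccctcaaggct
MRPS10: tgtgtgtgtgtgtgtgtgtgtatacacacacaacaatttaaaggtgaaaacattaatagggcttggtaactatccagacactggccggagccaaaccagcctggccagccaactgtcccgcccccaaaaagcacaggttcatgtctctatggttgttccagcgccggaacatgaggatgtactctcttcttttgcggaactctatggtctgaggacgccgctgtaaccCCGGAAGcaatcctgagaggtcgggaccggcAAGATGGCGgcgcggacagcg

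In Parental-MYC T58A, most mitochondrial ribosomal protein genes rose relative to Parental cells. Of the 75 members, 46 rose and 6 fell (limma, adjusted p under 0.05), where 30.1% of the 17012 tested genes rose and 33.7% fell. The median log2 difference of the members was 0.27, against -0.02 for all tested genes. In the large subunit 30 of 46 MRPL genes rose and 4 fell, and in the small subunit 16 of 29 MRPS genes rose and 2 fell. The medians were 0.29 for MRPL and 0.24 for MRPS genes. In bulk libraries, a change in the number of cells that express a gene and a change in RNA per cell cannot be told apart.

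MRPL36 and MRPS30, both large subunit proteins, were among the largest increases. MRPL36, a small relative of a bacterial large subunit protein, had 1106, 960.8 and 1159 normalised reads in Parental-MYC T58A, against 450.6, 473.2 and 456 in Parental. All 3 libraries with MYC T58A were well above every Parental library. The log2 difference was 1.22 ± 0.078 (SE, adjusted p = 2.67e-10). MRPS30 had 5227, 5126 and 5150 normalised reads in Parental-MYC T58A, against 2472, 2558 and 2448 in Parental. Here too the groups were far apart, with a log2 difference of 1.05 ± 0.047 (SE, adjusted p = 1.8e-12). MRPL41, a large subunit protein particular to mitochondria, had 1502, 1476 and 1925 normalised reads in Parental-MYC T58A, against 867, 740.5 and 707.5 in Parental. The groups did not overlap, but the gene varied more between libraries, and its log2 difference of 1.08 had an SE of 0.31 (adjusted p = 0.0102). MRPS2, the relative of a bacterial small subunit protein, averaged 3370 ± 189.6 in Parental-MYC T58A and 1838 ± 53 in Parental (log2 difference 0.87). MRPL50 averaged 2644 ± 118.4 in Parental-MYC T58A and 1514 ± 28.7 in Parental (log2 difference 0.80). Of the members with the most reads per kilobase, MRPL3, MRPL15, MRPS34 and MRPS35 rose by 0.53, 0.65, 0.68 and 0.53 on the log2 scale, while MRPL51 had a difference of 0.00.

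The 6 members that fell included MRPL53 and MRPL24. MRPL53 had 28.1, 43.6 and 26.4 normalised reads in Parental-MYC T58A, against 67.5, 78.9 and 80.3 in Parental. The groups did not overlap, at a log2 difference of -1.21 ± 0.19 (SE, adjusted p = 2.63e-05). The level is low, and 45.2% of the exon sequence of MRPL53 is shared with CCDC142 on the same strand in GENCODE v29, so that its reads are uncertain. MRPL24, whose bacterial relative lies at the exit of the peptide tunnel, had 2294, 2150 and 2383 normalised reads in Parental-MYC T58A, against 4063, 4243 and 4110 in Parental. Every Parental library was above every library with MYC T58A, and the log2 difference was -0.86 ± 0.077 (SE, adjusted p = 3.01e-08). MRPL20 fell by 0.55, MRPS10 by 0.26 and MRPL9 by 0.20 on the log2 scale. MRPL24, MRPL20 and MRPL9 lie on chromosome 1, whose 1418 tested genes had a median log2 difference of -0.462. With the differences of neighbouring genes taken off, MRPL9 was higher in Parental-MYC T58A, at 0.32.

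**Figure D2:**
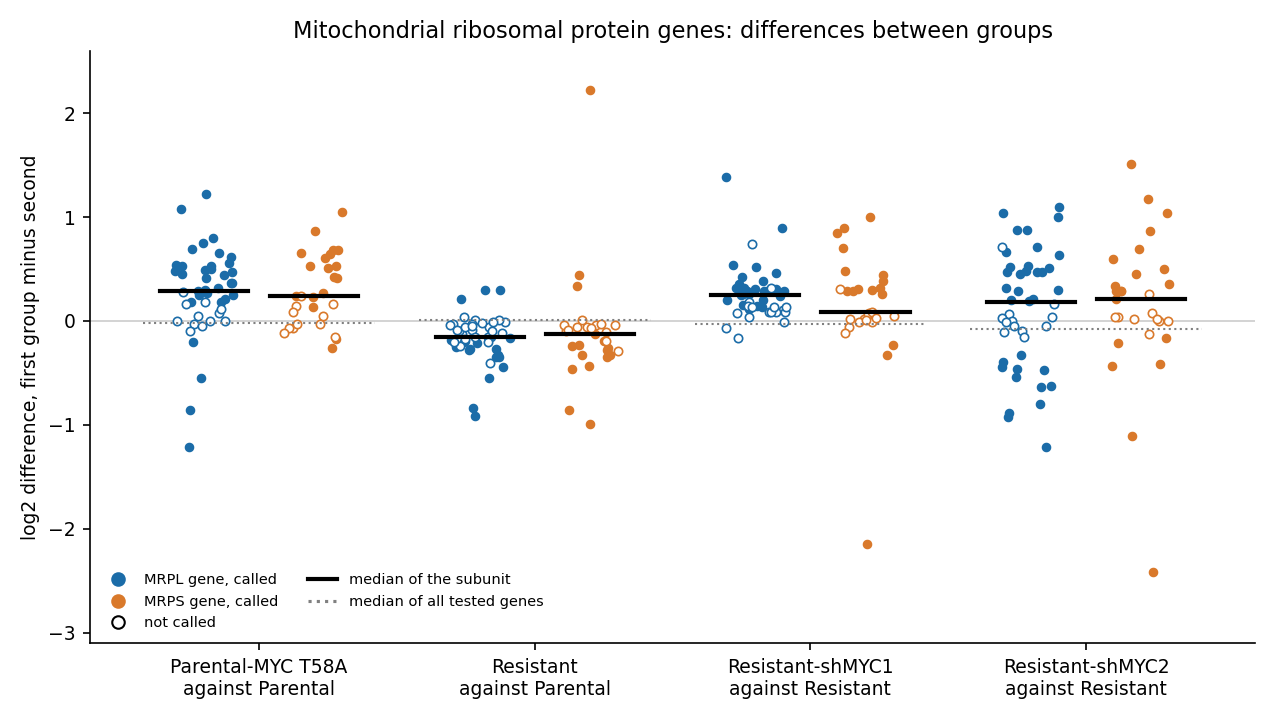
Log2 differences of the 75 members in the 4 main comparisons, MRPL genes in blue and MRPS genes in orange. Filled points passed the test, open points did not, black bars are the medians of each subunit and dotted lines the medians of all 17012 tested genes. The members lie mostly above 0 in Parental-MYC T58A against Parental (46 rose, 6 fell), mostly below 0 in Resistant against Parental (6 rose, 30 fell), and spread to both sides in the libraries labelled shMYC2 against Resistant (36 rose, 18 fell).

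Genes that build and serve the mitochondrial ribosome moved the same way in this comparison. Of 7 ribosomal proteins with other symbols, 4 rose and 1 fell. GADD45GIP1, a large subunit protein, rose by 1.19 ± 0.23 (SE), and ICT1, a release factor built into the large subunit, by 0.76 ± 0.062, while DAP3, a small subunit protein encoded on chromosome 1, fell by 0.55 on the log2 scale. Of 28 assembly factors, 21 rose and 3 fell, with a median of 0.43. RBFA, which assists small subunit maturation, rose from this list by 1.25 ± 0.072 (SE), and RNMTL1, an rRNA methyltransferase, by 0.77 ± 0.06. Of 12 translation factors 7 rose and none fell, with GUF1, a GTPase that acts on the elongating ribosome, at 1.29 ± 0.053. Of 11 genes for mitochondrial transcription and RNA stability 7 rose and none fell, including POLRMT, the mitochondrial RNA polymerase, at 1.01 ± 0.1. The mitochondrially encoded transcripts did not share the rise: of 13 mRNAs none rose and 3 fell, and both rRNAs missed the test, MT-RNR2 at -0.07 ± 0.15 (SE). Where none of a list of related genes is said to have risen or fallen, limma also found 0 at an unadjusted p under 0.05, and edgeR and DESeq2 called 0. The 6 melanocyte markers with a row summed to 3579 to 3974 in Parental-MYC T58A and 6801 to 7102 in Parental, and the 6 fibroblast markers to 339.3 to 409.2 and 339.5 to 395.3 in the same groups. Both lists went both ways: of the melanocyte markers MITF, TYRP1 and DCT rose (MITF by 1.25 on the log2 scale) and SOX10, S100B and PMEL fell, and of the fibroblast markers 3 rose and 2 fell. The part of these markers in the result was not tested.

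In Resistant cells, mitochondrial ribosomal protein genes were lower than in Parental cells, by small amounts in most cases. Of the 75 members 30 fell and 6 rose, where 24.4% of all tested genes fell and 27.2% rose. The median log2 difference of the members was -0.15, against 0.01 for all tested genes. In the large subunit 17 of 46 MRPL genes fell and 3 rose, and in the small subunit 13 of 29 MRPS genes fell and 3 rose. The medians were -0.15 for MRPL and -0.13 for MRPS genes. Only 4 of the 30 decreases passed a test for a change beyond 0.5 on the log2 scale. At that threshold 4 of the 75 members were lower, beside 1170 of the 17012 tested genes.

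The 4 largest decreases were all genes of chromosome 5. MRPS30 had 1177, 1282 and 1310 normalised reads in Resistant, against 2472, 2558 and 2448 in Parental. Every Resistant library was far below every Parental library, at a log2 difference of -0.99 ± 0.047 (SE, adjusted p = 8.53e-12). MRPL36 had 245.5, 247.2 and 241.3 normalised reads in Resistant, against 450.6, 473.2 and 456 in Parental. The Resistant libraries lay close together and far below Parental, and the log2 difference was -0.91 ± 0.078 (SE, adjusted p = 2.36e-08). MRPS36 had 468.5, 515.2 and 477.9 normalised reads in Resistant, against 874.3, 858.3 and 923.5 in Parental. Its groups were also well apart, at -0.86 ± 0.11 (SE, adjusted p = 7.47e-06). MRPL22, whose bacterial relative lines the peptide exit tunnel, had 928.5, 846.1 and 843 normalised reads in Resistant, against 1552, 1562 and 1559 in Parental (log2 difference -0.84 ± 0.074, SE). MRPS27, the fifth member on this chromosome, fell by 0.46. The 683 tested genes of chromosome 5 had a median log2 difference of -0.495 in the same comparison. The next largest decrease was MRPL35 on chromosome 2, which averaged 1599 ± 93.8 in Resistant and 2343 ± 47.2 in Parental (log2 difference -0.55).

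Few members were higher in Resistant. MRPS24 had 95, 106.2 and 117.4 normalised reads in Resistant, against 23.9, 16.4 and 27.1 in Parental. All 3 Resistant libraries were above all 12 others, at a log2 difference of 2.22 ± 0.31 (SE, adjusted p = 8.27e-06). The counts are low, and 23.2% of the MRPS24 exon sequence is shared on the same strand with URGCP-MRPS24, an annotated read-through transcript with the neighbouring gene, so that the reads may belong to either. MRPS14 averaged 987.7 ± 28.4 in Resistant and 727.3 ± 27.1 in Parental, and was the other member with all 3 Resistant libraries above the rest. Its log2 difference of 0.44 compares with a median of 0.40 for its neighbouring genes on chromosome 1. With the neighbours' values taken off in each library before the test, it was -0.01. MRPS33, MRPL55 and MRPL14 rose by 0.34, 0.30 and 0.30 on the log2 scale. MRPL55 was at 0.00 in the same fit. MRPL14 (adjusted p = 0.0289) missed the test in 4 of the 6 fits that left out 1 library.

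Of the related lists, 2 of the 7 ribosomal proteins with other symbols fell and none rose, led by PTCD3, an RNA-binding protein of the small subunit, which fell by 0.40 on the log2 scale. Of 28 assembly factors 13 fell and 2 rose, with MTIF3, an initiation factor that also binds the maturing small subunit, at -0.48 ± 0.088 (SE) and MTG2, a GTPase of large subunit assembly, at -0.46 ± 0.059. Of 12 translation factors 6 fell and 3 rose. The rRNA of the large subunit went the other way. MT-RNR2 averaged 40955 ± 3491 in Resistant and 20165 ± 706.5 in Parental, a log2 difference of 1.02 ± 0.15 (SE, adjusted p = 7.9e-05). MT-RNR1, the rRNA of the small subunit, was also higher, at 0.87, but was not called. The libraries were made from mRNA, in which rRNA is left only in part. Of the 13 mitochondrial mRNAs 1 rose and none fell, and of 11 genes for mitochondrial transcription and RNA stability 1 rose and 2 fell. Markers of other cell types also differed: the 6 fibroblast markers summed to 3520 to 3696 normalised reads in Resistant and 339.5 to 395.3 in Parental, most of it LUM, an extracellular matrix protein, at 3051 ± 85.1 in Resistant and 199.1 ± 11.1 in Parental. Of the 6, 3 were higher (LUM, COL1A1 at 431.7 ± 34.6 in Resistant and 104.9 ± 7.38 in Parental, and DCN at 122.1 ± 15.4 in Resistant and 24.8 ± 8.62 in Parental) and PDGFRA was lower, by 1.38 on the log2 scale. COL1A2 and COL3A1 averaged at most 7.15 in both groups. The part of these differences in the result was not tested.

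**Figure D3:**
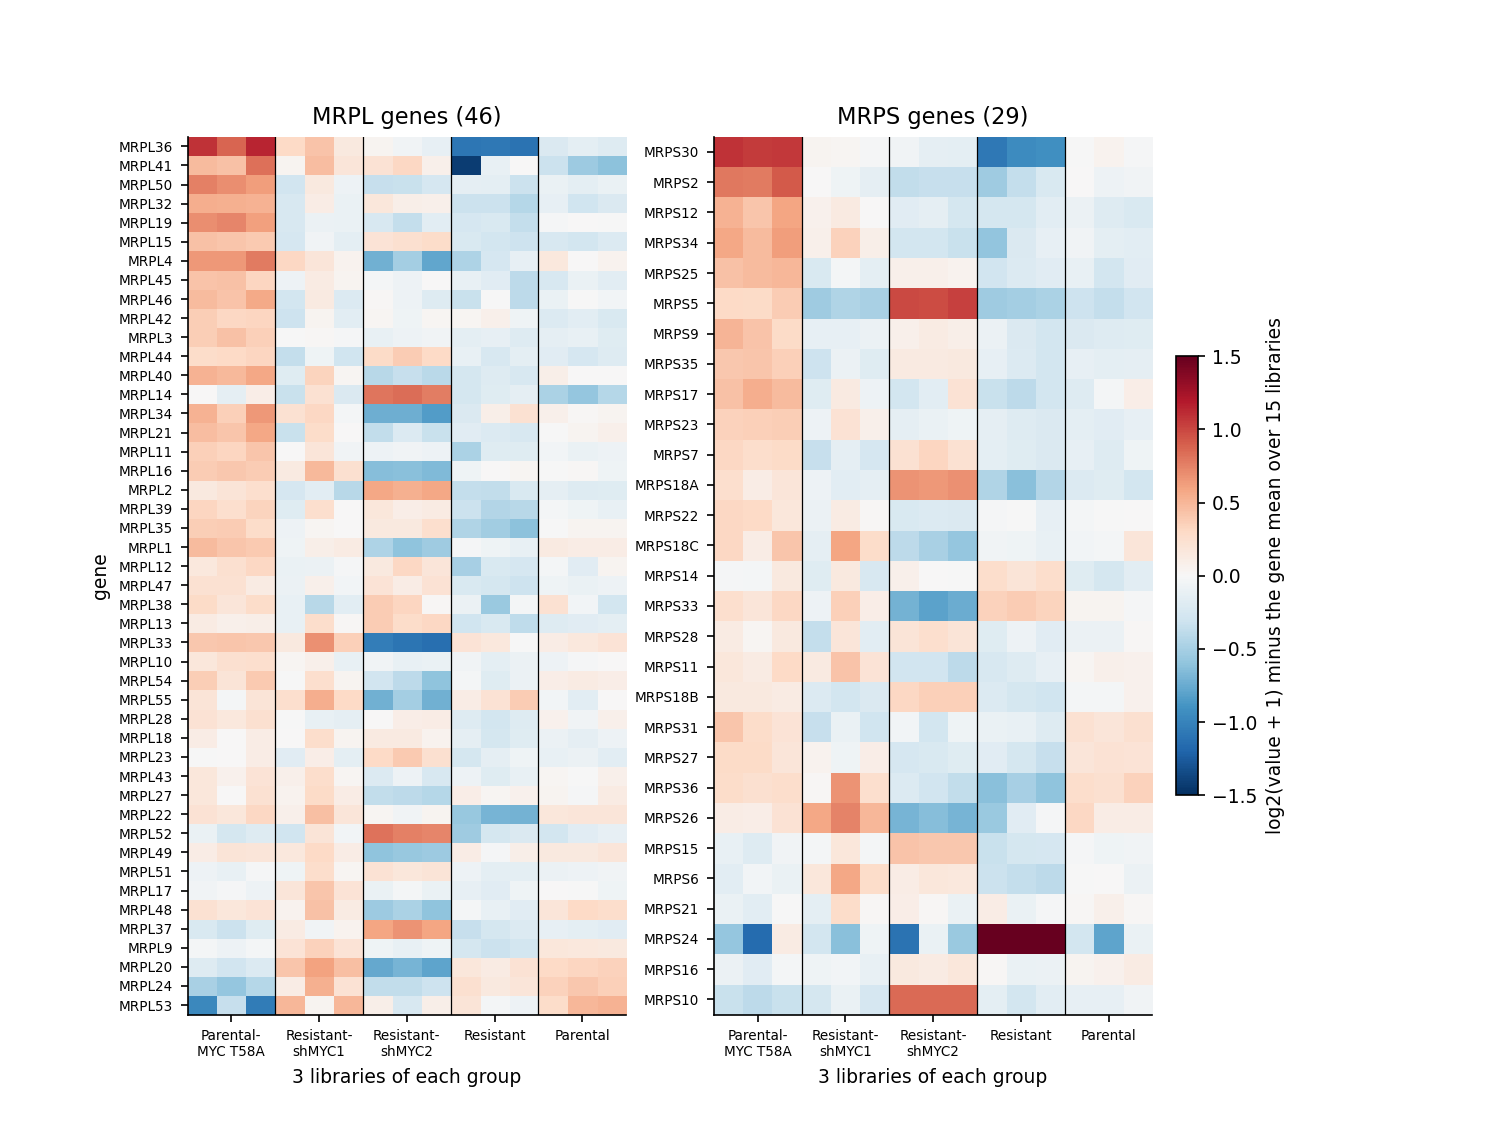
Levels of the 46 MRPL genes (left) and the 29 MRPS genes (right) in the 15 libraries, as log2(value + 1) minus the mean of the gene over all libraries. Colours are limited to 1.5 in both directions, and genes run from the highest to the lowest difference between Parental-MYC T58A and Parental. Single genes stand out in the libraries labelled shMYC2 in both directions, such as MRPS5 at 2783 to 2859 normalised reads and MRPL33 at 1037 to 1107, and MRPS24 stands out in Resistant at 95 to 117.4.

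In the libraries labelled shMYC1, mitochondrial ribosomal protein genes were higher than in Resistant cells. Of the 75 members 42 rose and 3 fell, where 27% of all tested genes rose and 30.1% fell. The median log2 difference was 0.24, against -0.03 for all tested genes. In the large subunit 29 of 46 MRPL genes rose and none fell by limma, edgeR or DESeq2 (1 at an unadjusted p under 0.05, median 0.25), and in the small subunit 13 of 29 MRPS genes rose and 3 fell (median 0.09). The gap of 0.16 between the subunits was 0.07 without library 2 labelled shMYC1. It was 0.02 with the neighbours' values taken off in each library before the test. With the median difference of neighbouring genes taken off each member instead, the medians were 0.18 for MRPL and 0.22 for MRPS genes. Without library 2 labelled shMYC1, 6 members and 5031 of the 17012 tested genes fell. This library had the highest level of its group for both subunits.

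The largest increases were again on chromosome 5. MRPL36 had 641.2, 706.6 and 581.2 normalised reads in the libraries labelled shMYC1, against 245.5, 247.2 and 241.3 in Resistant. The groups were far apart, at a log2 difference of 1.39 ± 0.078 (SE, adjusted p = 5.5e-11). MRPS30 had 2556, 2520 and 2449 normalised reads in the libraries labelled shMYC1, against 1177, 1282 and 1310 in Resistant. The libraries labelled shMYC1 lay within the range of the Parental values for this gene, and the log2 difference from Resistant was 1.00 ± 0.047 (SE, adjusted p = 4.2e-12). MRPL22 and MRPS36 rose by 0.89 each. MRPS26, a small subunit protein particular to mitochondria encoded on chromosome 20, had 1926, 2145 and 1808 normalised reads in the libraries labelled shMYC1, against 874, 1137 and 1269 in Resistant. All 3 libraries labelled shMYC1 were above all 12 others, at a log2 difference of 0.85 ± 0.1 (SE, adjusted p = 3.48e-06). The median log2 difference of tested genes was 0.446 on chromosome 5 and 0.401 on chromosome 20.

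The 3 members that fell were MRPS24, MRPS14 and MRPS33. MRPS24 had 23.8, 18.5 and 27.7 normalised reads in the libraries labelled shMYC1, against 95, 106.2 and 117.4 in Resistant, so that it was near its Parental level (log2 difference -2.15 ± 0.31, SE). MRPS14 fell by 0.33 and MRPS33, whose libraries overlapped between the groups, by 0.23. Among the related genes, 4 of the 7 proteins with other symbols rose and none fell, and 11 of 28 assembly factors rose and 3 fell. Of 12 translation factors 5 rose and 2 fell, and of 11 transcription genes 1 rose and none fell. MPV17L2, which takes part in the assembly of the ribosome at the inner membrane, rose by 0.74 ± 0.092 (SE) and RPUSD3, a pseudouridine synthase that acts on MT-RNR2, by 0.62 ± 0.08. MT-RNR2 averaged 16002 ± 3790 in the libraries labelled shMYC1 and 40955 ± 3491 in Resistant, a log2 difference of -1.38 ± 0.15 (SE). MT-RNR1 was at -0.88 and not called. Of 13 mitochondrial mRNAs 6 fell and none rose. Markers moved here as well: the 6 melanocyte markers with a row summed to 13098 to 15464 in the libraries labelled shMYC1 and 3549 to 3988 in Resistant, and the 6 fibroblast markers to 325.3 to 343.1 and 3520 to 3696 in the same groups. Of the melanocyte markers SOX10 and S100B rose and MITF fell by 1.21 on the log2 scale, and of the fibroblast markers 5 fell and PDGFRA rose. Their part in the result was not tested.

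In the libraries labelled shMYC2, members moved both ways relative to Resistant. Of the 75 members 36 rose and 18 fell, where 36.2% of all tested genes rose and 43% fell. The median log2 difference was 0.19, against -0.08 for all tested genes. In the large subunit 22 of 46 MRPL genes rose and 12 fell (median 0.18), and in the small subunit 14 of 29 MRPS genes rose and 6 fell (median 0.21). The split depended on scaling: with each library scaled to its total count, 30 rose and 24 fell. Under that scaling 5234 of the 16986 tested genes rose and 8259 fell.

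MRPS5, the relative of a bacterial protein at the mRNA entry of the small subunit, had the largest increase. It had 2802, 2783 and 2859 normalised reads in the libraries labelled shMYC2, against 974.4, 986.1 and 1011 in Resistant. The spread within either group was small beside the gap, and the log2 difference was 1.51 ± 0.045 (SE, adjusted p = 9.63e-16). Its neighbouring genes had a median of 0.07. MRPL52, a large subunit protein particular to mitochondria, had 1992, 1918 and 1882 normalised reads in the libraries labelled shMYC2, against 784.4, 945.7 and 974.1 in Resistant. The log2 difference was 1.10 ± 0.1 (SE), while its neighbouring genes had a median of -0.45. MRPL36 rose by 1.04 ± 0.078 (SE). All 6 members on chromosome 6 rose, where the median of the 745 tested genes was 0.389. MRPS18A had 1301, 1283 and 1311 normalised reads in the libraries labelled shMYC2, against 598.7, 526.4 and 603.6 in Resistant (log2 difference 1.17 ± 0.06, SE). MRPS10 had 2475, 2468 and 2471 normalised reads in the libraries labelled shMYC2, against 1238, 1130 and 1232 in Resistant (log2 difference 1.04 ± 0.053, SE). In both genes the libraries labelled shMYC2 were above all 12 others. MRPL14, which lies at the face between the subunits, rose by 1.00, MRPL2 by 0.88 and MRPS18B by 0.60. MRPL14 and MRPL2 were added here after their values were seen.

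Among the 18 decreases, MRPS24 fell by 2.42 on the log2 scale, with 12.9, 27.1 and 19.4 normalised reads in the libraries labelled shMYC2. MRPL33, a small relative of a bacterial large subunit protein, had 1107, 1062 and 1037 normalised reads in the libraries labelled shMYC2, against 2613, 2537 and 2267 in Resistant. The groups were far apart, at -1.21 ± 0.094 (SE, adjusted p = 4.58e-09), and its neighbouring genes had a median of -0.02. In GENCODE v29, 21.1% of its exon sequence is shared with BABAM2 on the same strand. MRPS33, a small subunit protein particular to mitochondria, had 738.6, 690.5 and 717.1 normalised reads in the libraries labelled shMYC2, against 1535, 1570 and 1520 in Resistant (log2 difference -1.11 ± 0.076, SE). MRPL20, whose bacterial relative is needed early in large subunit assembly, had 1746, 1841 and 1715 normalised reads in the libraries labelled shMYC2, against 3350, 3247 and 3468 in Resistant (log2 difference -0.92 ± 0.052, SE). In these 3 genes the libraries labelled shMYC2 were below all 12 others. MRPL55 fell by 0.89, but its neighbouring genes on chromosome 1 had a median of -1.40, and with their difference taken off it was at 0.57.

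The MRPS18 paralogs, 3 genes for related proteins, parted in these libraries. The proteins take different places in the ribosome, MRPS18A in the large subunit and MRPS18B and MRPS18C in the small. MRPS18A averaged 1298 ± 14.4 in the libraries labelled shMYC2 and 576.2 ± 43.2 in Resistant. MRPS18B averaged 3559 ± 66.3 in the libraries labelled shMYC2 and 2349 ± 75.5 in Resistant. Both rose, whereas MRPS18C averaged 870.8 ± 58.4 in the libraries labelled shMYC2 and 1157 ± 23.9 in Resistant, a log2 difference of -0.41 ± 0.14 (SE, adjusted p = 0.0134). In Parental-MYC T58A against Parental, MRPS18A rose by 0.41 and MRPS18B by 0.13, and MRPS18C was at 0.24 ± 0.14 (SE) and not called. In Resistant against Parental, MRPS18A fell by 0.28 and MRPS18B by 0.26, and MRPS18C was at -0.11 and not called.

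Related genes also moved both ways in the libraries labelled shMYC2 against Resistant. Of the 7 proteins with other symbols 2 rose and 2 fell, and of the 28 assembly factors 13 rose and 8 fell. Of 12 translation factors 5 rose and 4 fell, and of 11 transcription genes 6 rose and 3 fell. MTG1, a GTPase of large subunit assembly, rose by 1.19 ± 0.16 (SE) and MPV17L2 fell by 0.75. TFB2M, the transcription initiation factor of mitochondria, fell to 998.3 ± 42.6 in the libraries labelled shMYC2, against 2835 ± 132.8 in Resistant. MT-RNR2 averaged 54254 ± 4797 in the libraries labelled shMYC2 and 40955 ± 3491 in Resistant, and MT-RNR1 had a log2 difference of -0.19 and was not called. Of 13 mitochondrial mRNAs 5 rose and 2 fell, with MT-CYB at 0.99 ± 0.19 (SE) and MT-ND6 at -1.11 ± 0.3. The 6 melanocyte markers with a row summed to 190.6 to 244.5 in the libraries labelled shMYC2 and 3549 to 3988 in Resistant, DCT being at 0 in all 3 libraries labelled shMYC2, and the 6 fibroblast markers to 224 to 252.4 and 3520 to 3696 in the same groups. Of the melanocyte markers SOX10 rose and 4 fell, of which MITF fell by 4.44 on the log2 scale, and of the fibroblast markers 4 fell and PDGFRA rose. Their part in the result was not tested.

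**Figure D4:**
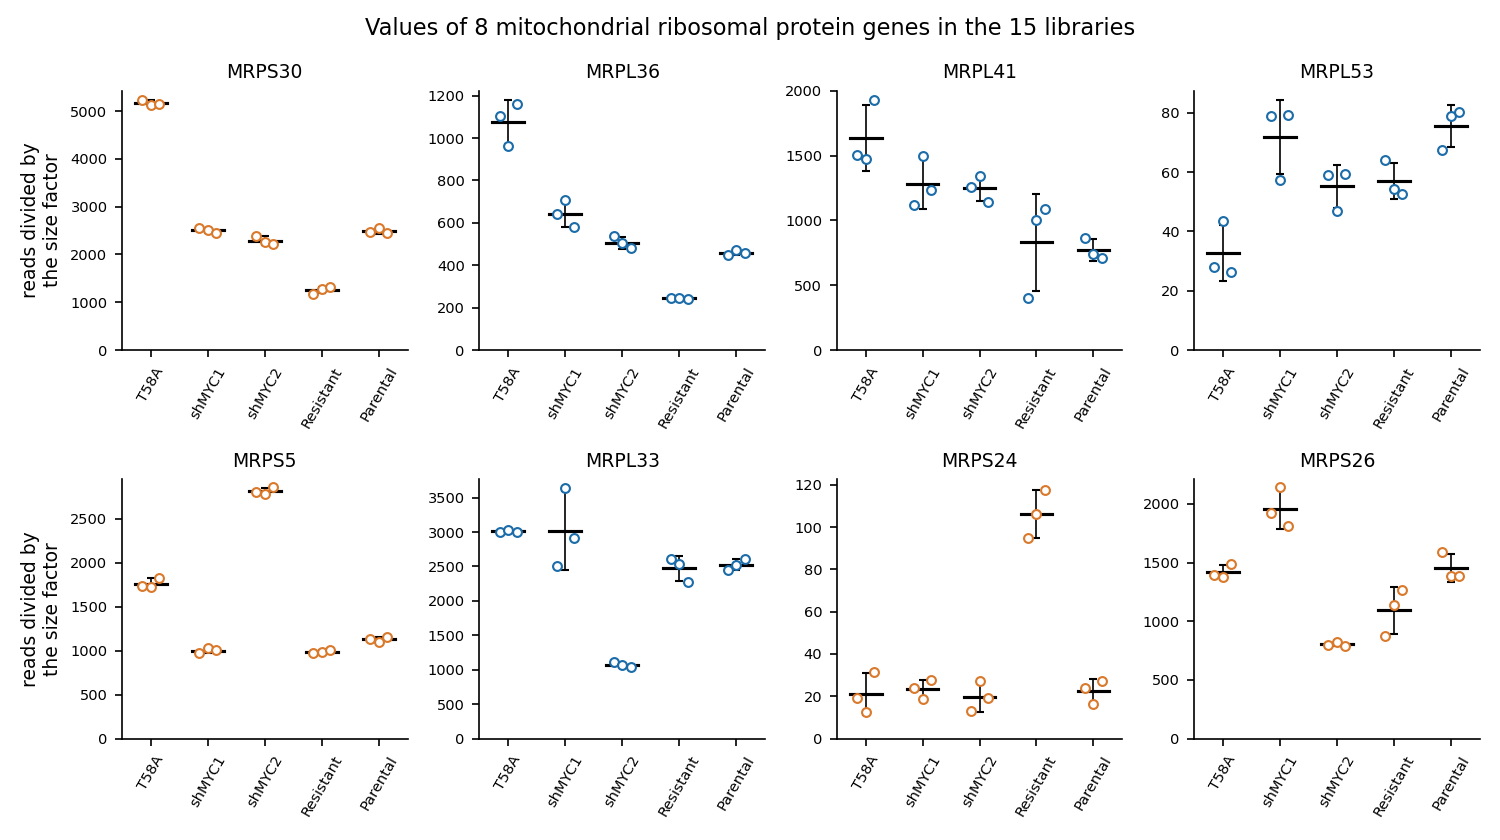
Normalised reads of 8 members in the 15 libraries. Points are libraries, bars the group mean and error bars the SD (n = 3), on axes that start at 0, and T58A, shMYC1 and shMYC2 stand for Parental-MYC T58A, Resistant-shMYC1 and Resistant-shMYC2. MRPS30 and MRPL36 are highest with MYC T58A and lowest in Resistant, MRPL41 has 1 Resistant library at 402.3 beside 1005 and 1086, and MRPS24 is at 95 or more in Resistant alone.

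Set against Parental, the hairpin-labelled groups differed from each other. These comparisons share their libraries with those above and are no independent evidence. In the libraries labelled shMYC1, 17 members rose and 5 fell relative to Parental, where 19.7% of all tested genes rose and 19.9% fell, and the median was 0.06. With total-count scaling, 9 rose and 9 fell, where 2611 of 16986 tested genes rose and 4351 fell. Without library 2 labelled shMYC1, 11 rose and 10 fell, where 3328 of 17012 tested genes rose and 3214 fell. In the libraries labelled shMYC2, 27 members rose and 30 fell relative to Parental, where 35.9% of all tested genes rose and 43.6% fell, and the median was -0.02. With total-count scaling, 18 rose and 34 fell, where 5230 of 16986 tested genes rose and 8325 fell. MYC was 7817 ± 259.8 in the libraries labelled shMYC2 and 3511 ± 94.4 in Parental-MYC T58A. The median of the members against Parental was -0.02 in those labelled shMYC2 and 0.27 in Parental-MYC T58A. The part of the MYC level in these medians was not tested.

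Between the hairpin labels themselves, 25 members rose and 33 fell in the libraries labelled shMYC2 relative to those labelled shMYC1, where 35.7% of all tested genes rose and 42.9% fell. MRPS5 was 1.49 ± 0.045 (SE) higher and MRPL33 1.48 lower on the log2 scale in the libraries labelled shMYC2. MRPS21, a small subunit protein that was singled out after its values were seen, was called in none of the 4 main comparisons, with log2 differences of -0.12 in Parental-MYC T58A against Parental, -0.04 in Resistant against Parental, 0.05 in the libraries labelled shMYC1 against Resistant and 0.00 in those labelled shMYC2 against Resistant.

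**Figure D5:**
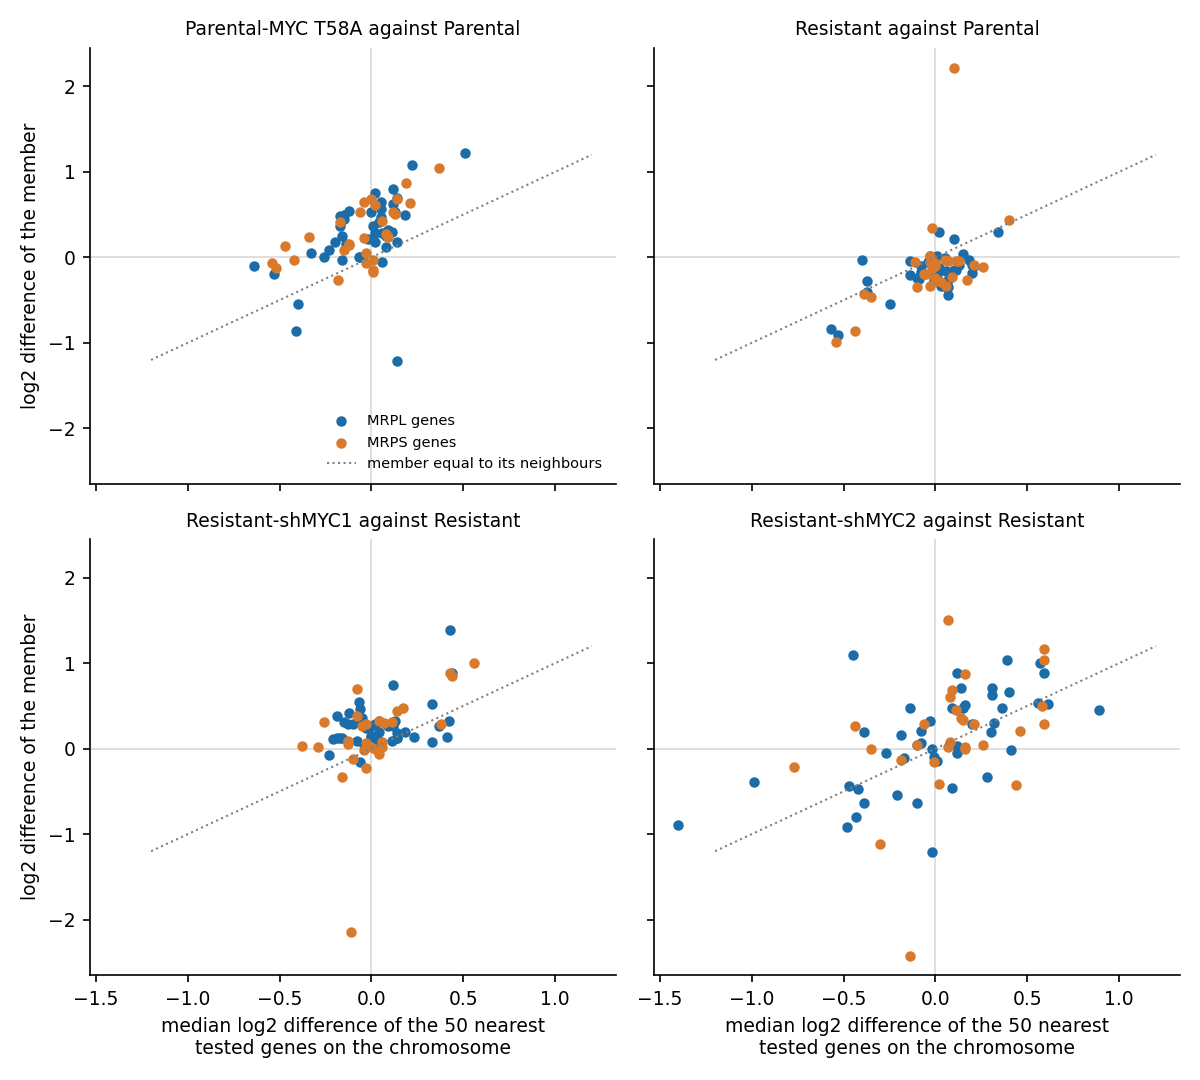
Log2 difference of each member (y axis) against the median log2 difference of the 50 nearest tested genes on its chromosome that are no members (x axis), in the 4 main comparisons, with MRPL genes in blue and MRPS genes in orange. The dotted line marks a member equal to its neighbours. In Parental-MYC T58A against Parental 66 of 75 members lie above the line, and in Resistant against Parental 63 lie below it.

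Members lie on 21 chromosomes, and part of the variation among them followed their neighbours. Each member was set beside the median of the 50 nearest tested genes on its chromosome. Across the 75 members, member and neighbours correlated at r = 0.56 in Parental-MYC T58A against Parental, 0.52 in Resistant against Parental, 0.44 in the libraries labelled shMYC1 against Resistant and 0.51 in those labelled shMYC2 against Resistant. Genes are not independent replicates and nearby members share neighbours, so these values are descriptions. The median of the neighbours' medians was 0.01 in Parental-MYC T58A against Parental and 0.00 in Resistant against Parental. It was 0.01 in the libraries labelled shMYC1 and 0.09 in those labelled shMYC2, both against Resistant. In Parental-MYC T58A against Parental, 66 members were above and 9 below their neighbours, by a median of 0.37. In Resistant against Parental, 12 were above and 63 below, by a median of -0.15. In the libraries labelled shMYC1 against Resistant, 56 were above and 19 below, by a median of 0.19, and in those labelled shMYC2, 44 were above and 31 below, by a median of 0.09. In the first of these, 42 of 46 MRPL genes and 24 of 29 MRPS genes were above their neighbours.

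Members with relatives in bacterial ribosomes and those particular to mitochondria were also counted apart. In Parental-MYC T58A against Parental, 21 of 29 MRPL genes with bacterial relatives rose (median 0.29) and 9 of 17 MRPL genes particular to mitochondria (median 0.28). Of the MRPS genes, 9 of 18 with bacterial relatives rose (median 0.20) and 7 of 11 particular to mitochondria (median 0.27). In Resistant against Parental, 12 of 29 and 5 of 17 MRPL genes fell, with a median of -0.15 in both classes, and 8 of 18 and 5 of 11 MRPS genes fell, with medians of -0.12 and -0.19. The differences between these classes were not tested.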

How the data were processed

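Whole-transcriptome RNA was measured in 15 libraries of A375 cells. Per the labels' protocols, RNA was isolated with a Qiagen RNeasy Mini kit and made into libraries with a Kapa stranded mRNA kit. Trim Galore, cutadapt, STAR, HTSeq and DESeq2 appear in the submitters' processing notes, without versions. Build, annotation and strand setting of the counting were not given in the sources used. The deposited table holds a normalised signal: the values are read counts divided by 1 size factor per library. This was read from the values, which all (100%) came out as whole reads to within 0.01 when divided by the step of their library (0.881 to 1.08).

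Genes that reached a value of 10 in 3 or more libraries were tested (17012, with 1310 left out). Since the deposited unit is normalised, the planned test for such values was used, limma 3.58.1 in R 4.3.3 (trend and robust options) on log2(value + 1) over all 15 libraries with 1 mean per group, Benjamini-Hochberg adjusted over all tested genes and called at 0.05. Log2 differences are on the log2(value + 1) scale, which understates changes of low genes. Whole reads recovered from the table were tested with edgeR 4.0.16 and DESeq2 1.42.0 as alternatives, and the others were total-count and quantile scaling, pseudocounts of 0.1 and 10, other filters, thresholds, member rules and sets of libraries, and removal of the median of the 50 nearest tested genes. The test was checked on simulated data in which few genes changed, in a single group, with the same spread setting for all genes. The real comparisons called 6730 to 13517 of the 17012 tested genes, so that the check does not cover data of this kind. Library numbers follow the columns of the table, and p-values measure the spread between these libraries.

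Members, gene lists, tests and motifs were chosen with earlier results of these data known. The text names, in each of the 4 main comparisons, the 5 members with the largest increases and the 5 with the largest decreases among those called with no overlap between groups, the 5 highest and the 5 lowest per kilobase, the MRPS18 paralogs, and of each other list at most 2 called genes per comparison. Members called in several comparisons are not counted together, since those comparisons share libraries. Exon lengths, exon overlaps and gene order came from GENCODE v29, in which 14957 genes matched by symbol and 9 by an older symbol. Promoter windows of 70 members came from RefSeq, and 5 members had no entry. The marker genes MLANA, TYR, KRT1, DSG3, PECAM1, PTPRC, CD3E and CD14 had no row under these symbols and so were not analysed here.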

Additional observations from a re-analysis of the deposited data

Results flagged for a closer look

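A set of 8 members went in opposite directions against Resistant in the 2 hairpin-labelled groups, called in each comparison, and the difference between those groups passed the test itself (limma). Against Resistant, 27% of all tested genes were higher in the libraries labelled shMYC1 and 43% lower in those labelled shMYC2. No count of genes with both is given here, so the 8 members are not set apart from the whole table. All 8 were higher in the libraries labelled shMYC1 and lower in those labelled shMYC2 than in Resistant. The difference of the libraries labelled shMYC2 minus those labelled shMYC1 was -1.48 on the log2 scale for MRPL33, -1.28 for MRPS26, -1.24 for MRPL20, -0.93 for MRPL16, -0.85 for MRPL4, -0.76 for MRPL49, -0.75 for MRPL48 and -0.52 for MRPL54. Of these 8, 7 carry MRPL symbols, as do 46 of all 75 members. The differences of the libraries labelled shMYC2 from Resistant were -1.21 for MRPL33, -0.92 for MRPL20, -0.64 for MRPL16, -0.63 for MRPL49, -0.44 for MRPL48, -0.43 for MRPS26, -0.39 for MRPL4 and -0.33 for MRPL54. Those of the libraries labelled shMYC1 were 0.27 for MRPL33, 0.32 for MRPL20, 0.29 for MRPL16, 0.13 for MRPL49, 0.31 for MRPL48, 0.85 for MRPS26, 0.46 for MRPL4 and 0.20 for MRPL54. MYC was higher than in Resistant under both labels, and over the whole table the shMYC2 libraries correlated less with the other 12 than those did among themselves. The part of either in these differences was not tested.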

How the results depend on the processing

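No paired analysis was possible because the columns of the table carry running numbers and not the replicate numbers of the sample titles. Across the 7 comparisons, 356 of the values for counts and subunit gaps stayed within 1.5 times of the main count, or within the replicate spread, and 62 moved. For single genes 786 values kept direction and call, 31 moved, 22 lost the call and 7 reversed. edgeR called 46 members higher and 6 lower in Parental-MYC T58A against Parental, 5 and 36 in Resistant against Parental, 44 and 3 in the libraries labelled shMYC1 against Resistant, and 38 and 18 in those labelled shMYC2 against Resistant. DESeq2 gave the main counts in these 4 comparisons.

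With a minimum change of 0.5 (log2) built into the test, 10 members were higher and 2 lower in Parental-MYC T58A against Parental, 1 and 4 in Resistant against Parental, 5 and 1 in shMYC1 against Resistant, 13 and 7 in shMYC2 against Resistant, 7 and 10 in shMYC2 against Parental and 6 and 10 in shMYC2 against shMYC1. In shMYC1 against Parental it left 0 and 0 (limma), where without a minimum limma gave 17 and 5, edgeR 19 and 5, and DESeq2 20 and 5, with 0 members past the minimum at an unadjusted p under 0.05. At an adjusted p of 0.01, 3 members were higher in Resistant against Parental, and 10 higher and 3 lower in shMYC1 against Parental. The same counts over the 17012 tested genes were 3681, and 2341 and 2372. With the minimum change, 1489 of them were higher and 2484 lower in Parental-MYC T58A against Parental. The numbers were 1371 and 1170 in Resistant against Parental, 1343 and 1863 in shMYC1 against Resistant, and 3281 and 4925 in shMYC2 against Resistant. They were 439 and 734 in shMYC1 against Parental, 3239 and 4832 in shMYC2 against Parental, and 3296 and 4676 in shMYC2 against shMYC1.

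Total-count scaling gave 6 lower in shMYC1 against Resistant, and 30 higher and 24 lower in shMYC2 against Resistant. It gave 9 and 9 in shMYC1 against Parental and 18 and 34 in shMYC2 against Parental. Of the 16986 genes tested under this scaling, the same counts were 6028 lower, 5234 and 8259, 2611 and 4351, and 5230 and 8325. The median of all genes in the 3 comparisons of shMYC2 (Resistant, Parental, shMYC1) was -0.221, -0.224 and -0.158 under total-count scaling. It was 0.152, 0.107 and 0.119 under quantile normalization, against -0.0755, -0.0882 and -0.0843 in the main fit. Quantile normalization gave 10 higher and 8 lower in shMYC1 against Parental, where 3409 and 3564 of the 17012 tested genes were higher and lower.

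The median of MRPL minus that of MRPS, with no test, was less stable than the counts. In Resistant against Parental it was -0.02, and -0.05 with subunits by structure. In Parental-MYC T58A against Parental it was 0.05, but -0.09 with the local shift taken off in each library (an alternative chosen after seeing the data) and -0.04 with the median of neighbouring genes taken off. In shMYC1 against Resistant it was 0.16, with 0.02 and -0.03 under these 2 settings. In shMYC2 against Resistant it was -0.03, with 0.03 under quantile normalization, 0.14 by structure and 0.02 with neighbours taken off. In shMYC1 against Parental it was 0.06, with 0.03 under quantile normalization and 0.02 with either neighbour setting. In shMYC2 against Parental it was 0.01, with -0.15 and -0.09 under the neighbour settings and -0.03 by structure. In shMYC2 against shMYC1 it was -0.05, with -0.23 under quantile normalization and -0.09 with the local shift taken off. The cause was not tested.

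With the local shift taken off in each library, members called the other way numbered 1 in Parental-MYC T58A against Parental, 0 in Resistant against Parental, 1 in shMYC1 against Resistant, 6 in shMYC2 against Resistant, 0 in shMYC1 against Parental, 9 in shMYC2 against Parental and 5 in shMYC2 against shMYC1. Among the members named by rule, those whose sign changed, or that came to 0, with neighbours taken off were MRPL9 in Parental-MYC T58A against Parental (0.32 and 0.33), MRPS14 (-0.01) and MRPL55 (0.00 and -0.04) in Resistant against Parental, and MRPL55 in shMYC2 against Resistant (0.57 and 0.52).

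Leaving out 1 library gave 41 to 47 members higher and 6 lower in Parental-MYC T58A against Parental, 4 to 7 and 25 to 29 in Resistant against Parental, 35 to 47 and 2 to 6 in shMYC1 against Resistant, 34 to 37 and 16 to 18 in shMYC2 against Resistant, 11 to 25 and 4 to 10 in shMYC1 against Parental, 25 to 27 and 26 to 28 in shMYC2 against Parental, and 23 to 29 and 30 to 34 in shMYC2 against shMYC1. The gap between the subunit medians ranged over 0.03 to 0.11, -0.04 to 0.01, 0.07 to 0.15, -0.13 to 0.06, 0.02 to 0.07, -0.08 to 0.00 and -0.12 to 0.01 in the same order. Without library 2 labelled shMYC1, 11 members were higher and 10 lower in shMYC1 against Parental, beside 3328 higher and 3214 lower of the 17012 tested genes. Depth limits the precision of low members such as MRPS24, which had 12.5 to 117.4 normalised reads, and MRPL53.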
